A study of Homo sapiens with 2 samples.

Results

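The immediate-early AP-1 genes and MYC were read out in PLC, a line of human liver cancer cells, with and without added PRSS35, a secreted protein of the serine protease family. The group was taken as a fixed list of 10 gene names: FOS, FOSB, FOSL1 and FOSL2 of the FOS family, JUN, JUNB and JUND of the JUN family, EGR1, IER2 and MYC. All 10 names were found in both libraries, among 26228 names that the libraries shared. The PLC cells were infected with a lentiviral pCDH vector, either empty (EV, genotype WT in the labels) or carrying the human PRSS35 coding sequence, and were selected with puromycin, so that each condition is 1 stable line. Total RNA was sequenced, with 1 library per condition. The labels describe culture in DMEM with serum and also a serum starvation step, and do not say which of these the sequenced cells had received. With single libraries, differences could not be set against replicates and were not tested.

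Immediate-early genes are transcribed within minutes of a growth factor or stress signal, without the need for new protein. Signals from RAS through the ERK, JNK and p38 kinases reach factors already bound at their promoters, such as SRF with its ETS-family partners and CREB. FOS and JUN proteins pair through leucine zippers to form AP-1, which binds DNA and switches on a later wave of genes. FOS proteins need a JUN partner, whereas JUN proteins can also pair with each other. EGR1 is a zinc finger factor, IER2 a small nuclear protein of the same early wave, and MYC a factor that pairs with MAX and drives growth and ribosome production.

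Values are FPKM as deposited, that is, fragments scaled to the length of the transcript and the number of mapped fragments, with the lower and upper bounds that Cufflinks gives. These bounds cover counting and assignment error within a library only. By the loci whose bounds imply whole fragments, 1 fragment was worth the same FPKM in both libraries (median ratio of EV to PRSS35 of 1.00 over 625 loci). PRSS35 itself had an FPKM of 0.643 in EV and 1836 in PRSS35 cells. Of the liver markers, SERPINA1 (2528 and 4239 FPKM), KRT18, KRT8 and APOA1 were abundant, whereas ALB (4.05 and 5.21) and TTR (1.56 and 1.61) were low. Of 10 markers of blood, endothelial and stromal cells, only CD68 passed 1 FPKM, at a locus that Cufflinks joined with MPDU1, and PTPRC, DCN and ACTA2 were listed at 0 in both libraries.

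The promoters of the JUN family and of EGR1 are shown because the JUN genes differed in direction between the libraries and EGR1 carries the binding boxes of SRF. Each is the window from 250 bases before to 50 bases after the start of the gene, given 5′ to 3′ on the strand of the gene, from RefSeq on GRCh38.p14. Capitals mark the CArG box (bound by SRF), TGACG (the half-site of the CRE, bound by CREB and ATF factors), TGACATCA (an AP-1-like site), CCAAT and TATAA, on either strand. The windows lie at chr1:58783998-58784297 (minus strand) for JUN, chr19:12791236-12791535 (plus strand) for JUNB, chr19:18281573-18281872 (minus strand) for JUND and chr5:138465229-138465528 (plus strand) for EGR1.
JUN: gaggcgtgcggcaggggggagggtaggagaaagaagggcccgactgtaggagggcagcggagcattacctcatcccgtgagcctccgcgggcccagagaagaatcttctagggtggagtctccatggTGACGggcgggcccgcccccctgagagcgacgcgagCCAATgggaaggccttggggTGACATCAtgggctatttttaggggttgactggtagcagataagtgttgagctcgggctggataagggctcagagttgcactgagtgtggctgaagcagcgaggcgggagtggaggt
JUNB: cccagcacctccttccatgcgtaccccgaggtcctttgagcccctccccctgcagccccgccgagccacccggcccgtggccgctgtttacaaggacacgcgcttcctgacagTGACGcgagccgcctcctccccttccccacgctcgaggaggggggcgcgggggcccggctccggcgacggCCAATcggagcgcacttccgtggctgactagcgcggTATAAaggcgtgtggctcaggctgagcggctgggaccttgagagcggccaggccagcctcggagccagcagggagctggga
JUND: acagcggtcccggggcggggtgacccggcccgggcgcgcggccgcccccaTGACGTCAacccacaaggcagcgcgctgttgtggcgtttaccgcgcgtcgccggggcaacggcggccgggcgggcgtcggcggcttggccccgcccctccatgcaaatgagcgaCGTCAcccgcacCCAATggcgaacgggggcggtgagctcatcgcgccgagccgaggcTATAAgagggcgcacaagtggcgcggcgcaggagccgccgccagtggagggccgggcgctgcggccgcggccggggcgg
EGR1: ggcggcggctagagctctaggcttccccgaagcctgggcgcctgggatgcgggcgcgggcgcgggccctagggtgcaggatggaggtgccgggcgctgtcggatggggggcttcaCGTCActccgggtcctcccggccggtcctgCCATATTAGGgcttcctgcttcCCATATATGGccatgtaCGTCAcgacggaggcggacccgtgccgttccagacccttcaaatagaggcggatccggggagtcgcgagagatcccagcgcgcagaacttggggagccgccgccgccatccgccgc

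The RefSeq promoters of 8 members were searched, and those of FOSL1 and MYC were neither searched nor shown. TGACG was present in all 8 promoters searched, against 24.6% of 35116 promoters in the table and 32.5% of the promoters of expressed genes. The half-site, the AP-1-like site, the GC box, the CCAAT box and the TATA box were chosen after the promoters had been seen. FOS had it once, 64 bases before the start, and JUND had it 3 times, counting both strands of a full CRE. The full CRE, TGACGTCA, which contains the half-site on each strand, was found in JUND alone, 200 bases before the start (1.85% of all promoters). Within these windows CArG boxes were found in EGR1 alone, with 2 of them, at 105 and 83 bases before the start. A CArG box was present in 1.29% of all promoters and 2 or more in 0.0313%. FOSL2 alone had an AP-1 site, TGACTCA (searched with TGAGTCA, present in 4.95% of promoters), and JUN alone had TGACATCA (2.61%). The ETS core CCGGAA was found in FOSB and IER2 (17.2% of all promoters), and the E-box CACGTG in 0 of the 8. The GC box GGGCGG was found in 6 of the 8 (68.1% of the promoters of expressed genes), with 6 copies in JUND, CCAAT in JUN, JUNB and JUND (34.8% of the same promoters), and TATAA in FOS, FOSB, JUNB and JUND (11.2% of the same promoters and 20.4% of all). These matches describe the windows only, and bases further upstream were not searched.

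The members differed widely in level, from JUND, above most of the expressed genes, to FOS and FOSB near the limit of expression. In the EV library 93.7% of the expressed genes had a lower FPKM than JUND, 87.0% a lower one than IER2, and 80.7% a lower one than JUNB. MYC exceeded 71.9%, EGR1 65.8%, FOSL2 37.7%, JUN 36.4% and FOS 16.7% of expressed genes. Going down from JUND, the order was IER2, JUNB, MYC, EGR1, then FOSL2 with JUN, then FOS and FOSB, and it held in both libraries except that JUN and FOSL2 changed places. The bounds of FOSL2 and JUN overlapped in each library, whereas those of every other pair of neighbours among the genes above 0 did not. A gene was called expressed where its FPKM averaged 1 or more across the libraries. This held for 8 of the 10 members and for 11118 genes in all.

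**Figure D1:**
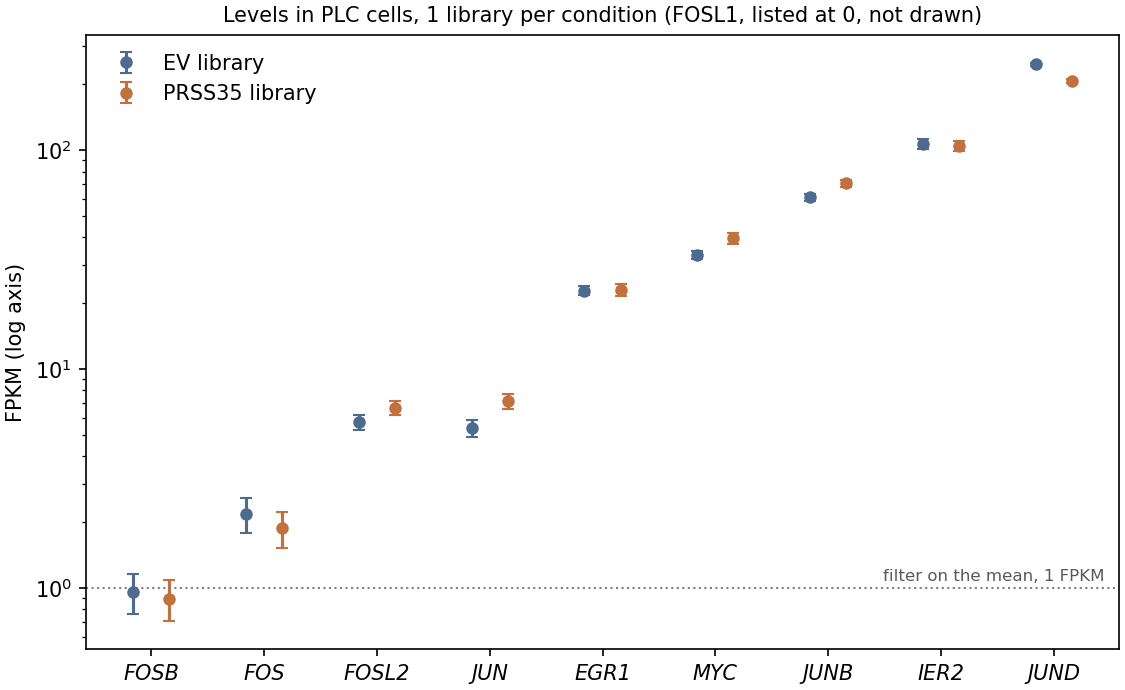
FPKM (log axis) of the 9 members above 0 in the EV and the PRSS35 library, with the lower and upper bounds of Cufflinks as bars (1 library per condition). The levels run from 0.894 for FOSB to 247 for JUND, a range beside which the libraries lie close together on this axis. The bounds of JUN, JUNB, MYC and JUND do not overlap between the libraries.

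None of the 8 expressed members differed by 2-fold between the libraries, on the scale of log2(FPKM + 1). Over all expressed genes 2.73% were higher and 2.48% were lower in PRSS35 by this fold. None differed by 1.5-fold either, against 9.5% of expressed genes. The log2 changes of the members ran from -0.25 to 0.35 with a median of 0.10, beside a median of 0.06 over all expressed genes. The median size of the change, without its sign, was 0.20 for the members and 0.17 for all expressed genes. By the bounds, JUN, JUNB and MYC lay higher in PRSS35 and JUND lay lower, with no overlap between the libraries, and the other 4 overlapped. Once FPKM is scaled to the total of all loci JUND lies higher, as do 86.9% of expressed genes. As deposited, the bounds of expressed genes lay apart with PRSS35 higher for 25.2% and with PRSS35 lower for 15.5%. The members' shares were 37.5% and 12.5%, of only 8 genes.

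**Figure D2:**
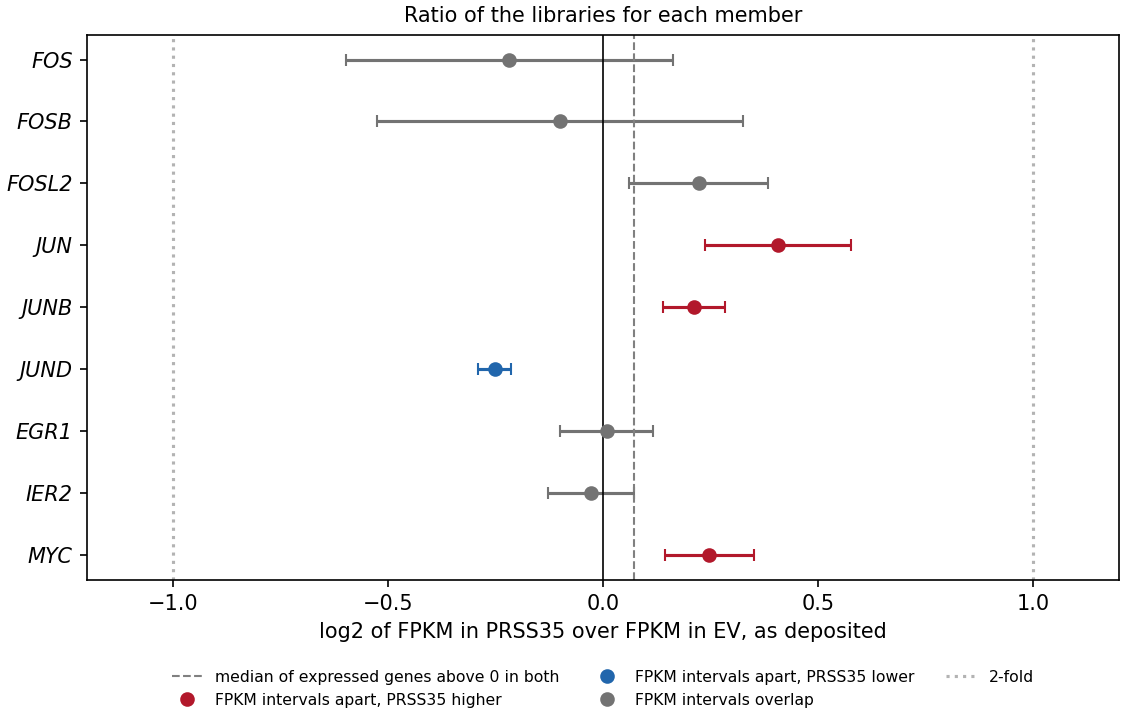
Ratio of the FPKM in PRSS35 to that in EV (log2, without a pseudocount) for the 9 members above 0. Points are the ratios of the single libraries, bars are the bounds propagated from those of both libraries, the dashed line is the median of the expressed genes above 0 in both (0.07), and dotted lines mark 2-fold. The bars of JUN, JUNB, MYC and FOSL2 lie above 0 and that of JUND below. After scaling FPKM to the total of all loci, JUND too lies above 0, as do most expressed genes. The log2 change (pseudocount of 1 FPKM) is then 0.46 for JUND and 0.69 for the median gene.

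Among the JUN and FOS genes with a usable value, which leaves out FOSL1, JUND and JUNB of the JUN family had the highest values. JUND, which is known as the steadily expressed member and as a brake on growth in several cell types, lies on chromosome 19 of hg19 from 18390504 to 18392466. It had an FPKM of 247 (bounds 243 to 251) in EV and 207 (bounds 203 to 211) in PRSS35, a ratio of 0.840 (bounds 0.818 to 0.862). The value in PRSS35 was lower and the bounds were far apart, and the order turned only after scaling FPKM to the total of all loci (log2 change 0.46, when that of the median gene was 0.69).

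JUNB, an early-induced member, lies on the same chromosome from 12902310 to 12904125. Its FPKM was 61.0 (bounds 58.7 to 63.2) in EV and 70.6 (bounds 68.2 to 73.1) in PRSS35, a log2 ratio of 0.21 (bounds 0.14 to 0.28). JUN, the founding member and the main substrate of the JNK kinases, lies on chromosome 1 from 59246463 to 59249785. It had 5.37 (bounds 4.90 to 5.85) in EV and 7.13 (bounds 6.58 to 7.68) in PRSS35, and its ratio of 1.33 (bounds 1.18 to 1.49) was the highest among the members. JUN and JUNB were higher in PRSS35 under each of the 9 scalings and other settings tried for them, as were FOSL2 and MYC. The pseudocounts and the 2 settings of loci could not have turned the sign, so that only the scalings and the GC step bear on it. Even so, 21.2% of the expressed genes had a larger change than JUN, 33.8% a larger one than JUND and 41.8% a larger one than JUNB.

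Ratios of genes within a library do not depend on how the libraries are scaled. JUNB stood at 0.247 (bounds 0.237 to 0.257) of JUND in EV and at 0.341 (bounds 0.327 to 0.354) in PRSS35, a log2 difference of 0.46 (bounds 0.38 to 0.55). JUN stood at 0.0218 of JUND in EV and at 0.0344 in PRSS35, a log2 difference of 0.66 (bounds 0.49 to 0.83). Relative to JUND, JUN and JUNB thus lay higher in the PRSS35 library by more than the error within the libraries. JUN had the highest and JUND the lowest change of the members, so that among their ratios this one had to shift most. The median log2 ratio of expressed genes above 0 in both libraries was 0.07, against -0.25 for JUND. Most of those genes therefore also lay higher in PRSS35 relative to JUND. JUN and JUND differ in GC content, and with the GC step described further on the log2 changes of JUN and JUND differed by 0.37 in place of 0.60 (pseudocount of 1 FPKM). JUND made up 78.8% of the summed FPKM of the family in EV and 72.7% in PRSS35, JUNB 19.5% and 24.8%, and JUN 1.71% and 2.50%. The 3 genes each have a single exon and kept their annotated structure in both libraries. The annotated transcripts of the members had 0 stretches of 50 bases in common.

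The values of FOSL2, FOS and FOSB were low beside those of JUND and JUNB, and FOSL1 had no usable value. FOSL2, a FOS-related member with slower kinetics, lies on chromosome 2 from 28615739 to 28639320 and had the highest of the usable values, with 5.72 (bounds 5.25 to 6.19) in EV and 6.67 (bounds 6.16 to 7.18) in PRSS35. The bounds of the libraries overlapped over a narrow range, and the log2 ratio was 0.22 (bounds 0.06 to 0.38). FOS, the classic immediate-early gene, lies on chromosome 14 from 75745481 to 75748937. It had 2.18 (bounds 1.78 to 2.58) in EV and 1.87 (bounds 1.52 to 2.23) in PRSS35, values that overlapped broadly. The bounds of FOS correspond to about 119.7 fragments in EV and 111.0 in PRSS35, and the ratio was 0.860 (bounds 0.660 to 1.12).

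FOSB, on chromosome 19 from 45971253 to 45978437, had 0.959 (bounds 0.762 to 1.16) in EV and 0.894 (bounds 0.705 to 1.08) in PRSS35, and did not pass the filter of 1 FPKM. FOSL1, on chromosome 11 from 65659607 to 65667997, is a member often raised in tumour cells by ERK signalling. It is listed at 0 in both libraries, at a locus that Cufflinks had assembled from reads in each. Of 8795 names assembled in both libraries, 885 (10.1%) are listed at 0 in both. Genes in use are listed at 0 too, such as NDUFB10, a subunit of respiratory complex I, with 0 in EV and 537 in PRSS35. No level of FOSL1 is therefore given here.

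Summed, the JUN genes had 313 FPKM in EV and 285 in PRSS35, and FOS, FOSB and FOSL2 together had 8.85 and 9.44. No ratio of the families is given, since FOSL1 is missing from the second sum. FOSL2 made up 64.6% of the sum of these 3 genes in EV and 70.7% in PRSS35, and FOS 24.6% and 19.9%. FOSL2 over FOS was 2.62 (bounds 2.15 to 3.20) in EV and 3.56 (bounds 2.90 to 4.37) in PRSS35, a log2 difference of 0.44 (bounds 0.03 to 0.85). These sums describe transcripts and not the dimers that the proteins form.

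**Figure D3:**
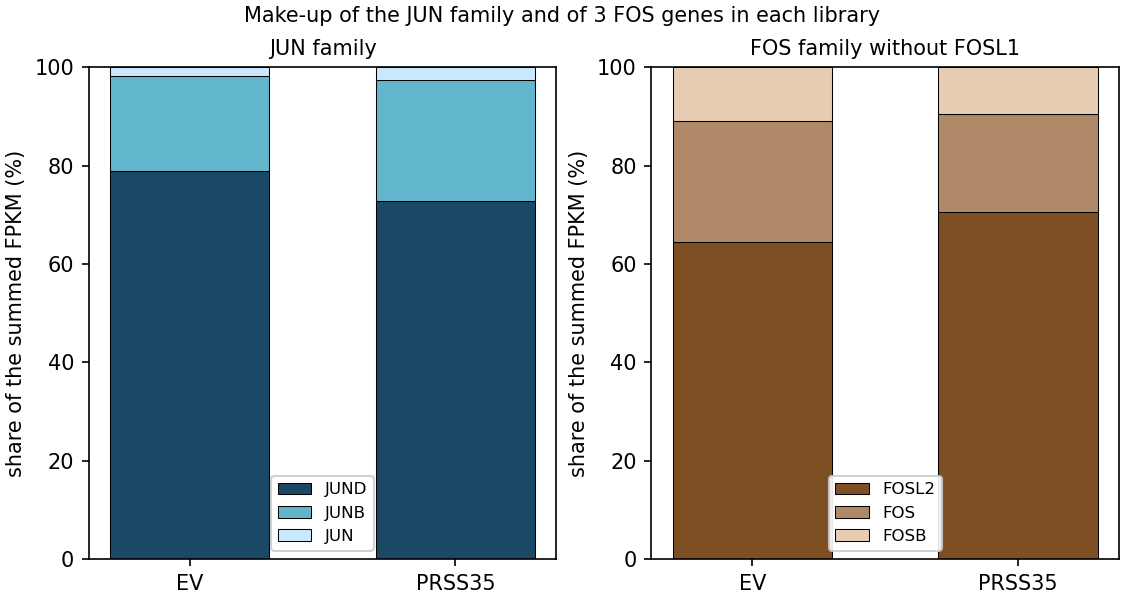
Share of each gene in the summed FPKM of the JUN family, and in that of FOS, FOSB and FOSL2, in percent, in the EV and the PRSS35 library (1 library each, FOSL1 left out for want of a usable value). JUND makes up 78.8% of its family in EV and 72.7% in PRSS35, and FOSL2 makes up 64.6% and 70.7% of the sum of its 3 genes.

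EGR1 and IER2 were close to equal in both libraries. EGR1 lies on chromosome 5 from 137801181 to 137805004, and its FPKM was 22.9 (bounds 21.8 to 23.9) in EV and 23.0 (bounds 21.6 to 24.4) in PRSS35, a ratio of 1.01 (bounds 0.934 to 1.08). IER2, on chromosome 19 from 13261282 to 13265718, had 107 (bounds 102 to 112) in EV and 105 (bounds 99.7 to 110) in PRSS35, a ratio of 0.981 (bounds 0.915 to 1.05). The bounds of the libraries overlapped for both genes. By their width the bounds of EGR1 would correspond to 2056 fragments in EV and 1090 in PRSS35 at nearly the same FPKM. These are not counts of reads, and the bounds were wider in PRSS35 than the level alone would give. EGR1 was 10.5 times as abundant as FOS in EV and 12.3 times in PRSS35. Among the members with a usable value, IER2 was the most abundant after JUND. IER2 over JUND was 0.433 in EV and 0.505 in PRSS35, a log2 difference of 0.22 (bounds 0.12 to 0.33).

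MYC, on chromosome 8, had an FPKM of 33.3 (bounds 31.9 to 34.7) in EV and 39.6 (bounds 37.3 to 41.8) in PRSS35, a ratio of 1.19 (bounds 1.11 to 1.28). The bounds lay apart, with PRSS35 higher, and 35.9% of the expressed genes had a larger change. The locus kept its annotated structure in EV and was assembled from reads in PRSS35. Over 1116 expressed genes with that pattern and above 0 in both libraries, the median log2 change was 0.16 and 37.9% had bounds apart with PRSS35 higher. Over 2365 genes annotated in both libraries these were 0.08 and 23.3%. The part of assembly in the value of MYC was not tested. As for EGR1, the bounds of MYC were wider in PRSS35 than the level alone would give. By their width they would correspond to 2190 fragments in EV and 1223 in PRSS35, which are not counts of reads. JUN, JUNB, JUND, FOS and EGR1 were annotated in both libraries, and FOSB, FOSL1, FOSL2 and IER2 were assembled in both.

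The change between the libraries also varied with the GC content of the transcript. With the expressed genes split into deciles by GC content, the median log2 change was 0.01 in the lowest decile, 0.16 in the fifth and the sixth, and -0.14 in the highest. JUND (69.9% GC), JUNB (64.9%) and IER2 (63.0%) lie in the highest decile, JUN (56.1%) and EGR1 (55.3%) in the seventh, and MYC (48.8%) in the fifth. Relative to the median of its decile, the log2 change was 0.34 for JUNB, 0.26 for JUN, 0.11 for IER2, 0.08 for MYC and -0.12 for JUND, against 0.21, 0.35, -0.03, 0.24 and -0.25 without this step. JUNB and JUND are in the same decile, so that their difference does not move with it. The log2 change of JUN exceeded that of JUND by 0.60 without it and by 0.37 with it, and the order of the changes of JUN and JUNB turned, with JUNB minus JUN at -0.14 without it and 0.09 with it. FOSL2 stood at 0.03 against 0.19 without this step, FOS at -0.31 against -0.15, and EGR1 at -0.08 against 0.01. Of the expressed members only JUN moved by less than 1.5 times, and IER2 and EGR1 changed sign. The part of GC content in these values was not tested further.

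The members have few exons, but their transcripts are not all short. The median transcript length was 2623.5 bases for the members and 3039.5 for expressed genes, and FOSL2 had 6713. Their annotated transcripts have a median of 2.5 exons, against 9 for expressed genes, and 3 of the 10 have a single exon, against 1.73% of expressed genes. FOSB, JUNB, JUND and IER2, 4 of the 10, are on chromosome 19. The share of expressed genes on that chromosome was not computed, so that this count only describes the members. Early transcripts are known for AU-rich elements, built on ATTTA in the DNA, which mark them for rapid decay. The 3′ UTR of FOS had 5 copies of ATTTA, or 6.20 per kilobase, more than in 95.2% of expressed genes. JUNB had 4.00 and MYC 3.01 per kilobase, whereas JUND had 1.34, EGR1 0.818 and IER2 none (0 copies). Of the 10 members 5 lay above the median of expressed genes, 1.46 per kilobase, so that this count alone does not set the group apart.

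The lists that follow are given at the deposited scale, where the bounds of 25.2% of all expressed genes lay apart with PRSS35 higher and 15.5% with PRSS35 lower. These shares were 30.3% and 13.0% after scaling to the total of named loci, 18.5% and 20.7% by the upper quartile, and 86.9% and 2.50% after scaling to the total of all loci. After scaling FPKM to the total of all loci, the named genes with lower values in PRSS35 turn higher except ATF7, EGR4 and ETV5, and the median of each list moves to between 0.58 and 0.76.

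The other immediate-early genes were mixed in direction. Of 25 expressed genes on that list, 8 had bounds apart with PRSS35 higher and 5 with PRSS35 lower, and the median log2 change was 0.06. The counts were 10 and 5 after scaling to named loci, 6 and 5 by the upper quartile and 24 and 1 after scaling to all loci. ZFP36 and ZFP36L1, which bind AU-rich elements and speed the decay of early transcripts, were higher in PRSS35, with 30.7 and 45.7 FPKM for ZFP36 and 7.31 and 12.1 for ZFP36L1. IER5 was higher too, with 9.91 in EV and 13.6 in PRSS35. EGR4, a relative of EGR1, had 2.95 in EV and 0.666 in PRSS35 and was the only one past 2-fold, at a locus assembled in EV alone. ID1, an inhibitor of helix-loop-helix factors and the most abundant gene listed, had 1156 and 1348.

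Among the other partners of AP-1 proteins, 3 of 9 expressed genes had bounds apart with PRSS35 higher and 2 with PRSS35 lower (median log2 change 0.00). The counts under the same scalings were 3 and 2, 2 and 3, and 7 and 1. MAFK, a small MAF protein, had 64.8 in EV and 98.2 in PRSS35, and JDP2, a JUN partner that represses AP-1 sites, had 2.09 and 3.51. BATF3, which pairs with JUN proteins, was lower, with 45.1 and 30.8, at a locus assembled in PRSS35 alone. ATF7 had 5.24 and 1.68, past 2-fold, but its locus was joined with NPFF in PRSS35 alone.

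Upstream of the members, 7 of 23 expressed kinases and factors had bounds apart with PRSS35 higher and 1 with PRSS35 lower (median log2 change 0.06). In the same order of scalings the counts were 8 and 0, 6 and 4, and 21 and 0. MAP2K1, the kinase that activates ERK, had 19.9 in EV and 28.6 in PRSS35, and BRAF, a kinase upstream of it, had 1.73 and 2.66. CREB1, which binds the CRE, had 0.605 and 3.13, past 2-fold, at a locus assembled in PRSS35 alone. MAP2K2, the most abundant gene listed, had 397 and 378 with overlapping bounds. The genes that ERK signalling induces as its own feedback were split, with 2 higher and 2 lower of 10 (median 0.07), and 2 and 2, 1 and 2, and 8 and 0 under those scalings. SPRY1 had 2.78 and 4.89 and SPRY4 (assembled in PRSS35 alone) 3.31 and 4.04, both inhibitors of the pathway, whereas the ETS factors ETV4 (262 and 215) and ETV5 (10.3 and 4.91) were lower in PRSS35.

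Of 15 expressed targets of AP-1, 4 were higher and 3 lower by the bounds (median log2 change 0.10). Under those scalings they were 4 and 3, 2 and 4, and 14 and 0. MMP9, a gelatinase, had 3.16 in EV and 5.74 in PRSS35. TGFB1 (228 and 171), the growth factor EREG (2.97 and 2.21) and the metallothionein MT2A (1627 and 1445) were lower. MMP3, MMP10, MMP13 and IL6 were listed at 0 in both libraries.

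Around MYC, 2 of 8 expressed genes of its dimer network were higher and 1 was lower by the bounds (median 0.08), and 2 and 1, 1 and 1, and 7 and 0 under those scalings. MXI1, which competes with MYC for MAX, had 1.78 and 2.58, MLX 34.5 and 38.5, and MLXIP 10.4 and 8.74. Of 9 expressed regulators of MYC, 2 were higher and 1 was lower (median -0.02), and 2 and 0, 2 and 2, and 9 and 0 under those scalings. AURKA, a mitotic kinase that also stabilises MYC proteins, had 112 and 147, SKP2, part of a ubiquitin ligase, had 10.2 and 13.4, and ZBTB17, a partner in repression, had 23.1 and 19.9.

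The counts for the targets of MYC, like those of the other lists, depended on the scaling. Of 32 expressed targets, 4 had bounds apart with PRSS35 higher and 9 with PRSS35 lower, and the median log2 change was -0.03. These counts were 5 higher and 7 lower after scaling to the total of named loci, 3 and 15 by the upper quartile, and 31 and 0 after scaling to the total of all loci, where most expressed genes are higher too. SRM, the spermidine synthase, had 1061 in EV and 749 in PRSS35, the cap-binding factor EIF4E had 10.1 and 6.66, and RRP9, which acts in ribosomal RNA processing, had 113 and 86.6. LDHA, the lactate dehydrogenase subunit that hypoxia also induces, was higher, with 260 and 340. EIF4A1, the most abundant of these, had 1299 and 1256 at a locus joined with its neighbours. None of the lists was tested against other genes, and the transcript level of MYC and those of its targets are given side by side only.

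**Figure D4:**
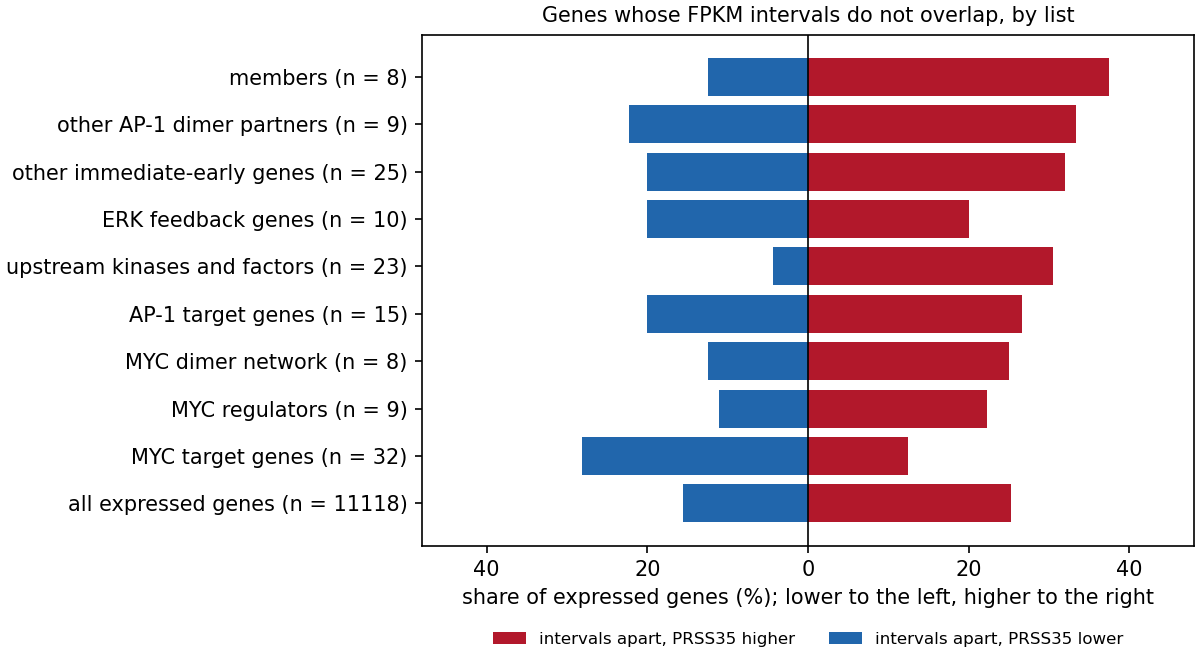
Share of the expressed genes of each list, in percent, whose Cufflinks bounds lie apart between the libraries, with PRSS35 higher to the right and PRSS35 lower to the left (FPKM as deposited, 1 library per condition, number of expressed genes in parentheses). The members stand at 37.5% higher and 12.5% lower, the MYC targets at 12.5% higher and 28.1% lower, and all expressed genes at 25.2% and 15.5%. After scaling FPKM to the total of all loci, 0 of the MYC targets remain lower, beside 2.50% of all expressed genes.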

How the data were processed

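RNA of the EV and PRSS35 cells was sequenced by the authors (HiSeq2500, NEBNext Ultra kit), aligned to hg19 with TopHat2 2.1.0 and quantified with Cufflinks 2.2.1. The submitters' processing notes name Cuffdiff for the last version. The annotation release is not given in the sources used here. The deposited values are FPKM per locus with lower and upper bounds, treated here as 2 standard errors each way. FPKM of rows with the same name was summed, loci that join several names counted for each name, and alternate haplotypes were left out. Changes were taken as log2 of PRSS35 over EV after adding 1 FPKM to each, for genes with a mean of at least 1 FPKM. Bounds of ratios were propagated from both libraries on the log scale. Calls were checked on simulated data with planted changes larger than 2-fold. That check does not bear on changes as small as those of the members, or on differences between replicate cultures. Depth was read from bounds below 200 fragments that gave a whole number within 0.01 (35.9% of annotated loci in EV, 37.6% in PRSS35), and the bounds cover counting and assignment error within a library only. Structure, GC content and ATTTA were taken from GENCODE release 44 lifted to GRCh37, which is hg19, and matched 86.1% of expressed genes. Promoters came from RefSeq. The members and lists were chosen with earlier results of these data known. Named genes are the members, PRSS35 and, per list, up to 4 genes with bounds apart by size of change and the most abundant gene, and some of the genes so chosen are not reported here. NDUFB10, the neighbours of the members, the genes listed at 0 and most markers were named after their values were seen. Python 3.11.15, numpy 2.4.6, pandas 2.3.3 and matplotlib 3.10.9 were used.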

Additional observations from a re-analysis of the deposited data

How the results depend on the processing

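The number of members past 2-fold was 0 under each of the 13 alternatives run for it, a 1.5-fold limit included. Several of these could not have raised it. The highest locus per name and the omission of joined loci left every member's value as it was, since each had 1 locus per library. A pseudocount of 5 FPKM shrinks changes. The mean of at least 5 FPKM and the restriction to annotated members took subsets of the same genes. JUN came nearest to 2-fold, at a log2 change of 0.99 after scaling to the total of all loci. The median log2 change of the members stayed between 0.00 and 0.19 under 11 of 12 alternatives and was 0.76 after scaling to the total of all loci, unnamed ones included. That step takes the all-gene median from 0.06 to 0.69. Under that scaling 7 members had bounds apart, 7 of them with PRSS35 higher and 0 lower, beside 86.9% and 2.50% of expressed genes. With it the log2 change was 0.46 for JUND, 0.35 for FOS and 0.68 for IER2. Division by the sum over named loci gave 4 higher and 1 lower (30.3% and 13.0% of expressed genes), and members annotated in both libraries gave 2 higher and 1 lower, without MYC (23.3% and 6.60% of the genes annotated in both and above 0). Counts of expressed genes past 2-fold went from 303 higher and 276 lower to 192 and 162 with a pseudocount of 5 FPKM, 183 and 184 without joined loci, 202 and 169 at a mean of at least 5 FPKM, 581 and 475 at 1.5-fold, and 1388 and 188 after scaling to the total of all loci. The GC step, the scalings of the lists, the restriction to annotated members and the counts of bounds under other scalings were chosen after seeing the data. No paired analysis was possible because there was a single library of EV and of PRSS35 cells. The bounds of FOS and FOSB correspond to about 100 fragments, which limits what can be said of them.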

Other observations

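Unnamed loci assembled within 5 kilobases of the members were few and low. One lay 647 bases from JUND in EV with an FPKM of 0.974 (bounds 0.641 to 1.31), and one lay 877 bases from it in PRSS35 with 0.968 (bounds 0.625 to 1.31). Beside FOSL2, 2 such loci were assembled in PRSS35 alone, with 0.738 (bounds 0.293 to 1.18) and 0.546 (bounds 0.217 to 0.876). The genes next to FOSL1, which is listed at 0, were abundant. CCDC85B had 331 in EV and 262 in PRSS35, and FIBP had 186 and 155. CASC11, the noncoding gene beside MYC, had 0.0534 in EV and is listed at 0 in PRSS35.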
